A study of Drosophila melanogaster with 16 samples.

Results

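The subunit genes of the mitochondrial respiratory chain and the ATP synthase were examined in whole Drosophila melanogaster larvae. Members were the genes whose symbol begins with ND- (complex I), UQCR- (complex III), COX and a digit (complex IV) or ATPsyn (ATP synthase), together with RFeSP, Cyt-c1, ox, levy and the cytochrome c genes. The rule found 65 of the 10459 genes in the table. Of these, 55 encode the subunits used in the body at large, here called somatic (31 of complex I, 9 of complex III, 6 of complex IV and 9 of the ATP synthase). The other 10 are paralogues with testis-biased expression, whose symbol is that of another subunit with an added L, or Cyt-c-d, the cytochrome c of the male germ line. Complex II genes were left out by the rule, and Cyt-c-p and COX5A were not analysed here.

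RNA was sequenced in 16 libraries of male larvae, 4 in each of 4 groups. ERK7 mutants carry the allele ERK71, a small frameshift deletion made with CRISPR/Cas9 in 1 line, and ERK7 is an atypical MAP kinase. Controls came from a line that passed through the same procedure without a mutation in ERK7, and both lines were backcrossed to w1118 and kept over a balancer. Eggs were laid over 3 h, first-instar larvae were moved to standard food 24 h later, and after another 48 h larvae were put for 6 h on agarose in PBS (fasted) or on fresh food (fed). The methods of the study give a later age at the last transfer than the sample labels do. The mutant males are infertile as adults. The paper also reports that mutant larvae weighed more at a set age and pupariated earlier than controls. A difference in developmental stage and an effect of the mutation therefore cannot be told apart here. The number of larvae per library is not given in the sources used here, so p-values measure the spread between these libraries, which may be technical. The groups were ERK7 mutant fasted, control fasted, ERK7 mutant fed and control fed. Reads on genes per library ran between 18648445 and 19594002 in mutant fasted, 17142412 and 18314699 in control fasted, 19206955 and 20601418 in mutant fed, and 16482553 and 20057340 in control fed larvae. Levels are given in RPM, the reads of a gene scaled to the effective library size. Differences are differences in log2(RPM + 1), which understate the change of a gene with few reads, and a gene was called higher or lower where the p-value of limma, adjusted by the Benjamini-Hochberg method over all 10459 genes, was under 0.05. The transcript of Erk7 itself does not check the genotype label, since a small deletion leaves reads over the rest of the gene.

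The respiratory chain passes electrons through complexes I, III and IV to oxygen and pumps protons across the inner mitochondrial membrane, and the ATP synthase lets the protons flow back to make ATP. Complex I takes electrons from NADH, complex III passes them from ubiquinol to cytochrome c, and complex IV hands them to oxygen. Most subunits come from the nuclear genome and have to be matched with the few that the mitochondrial genome encodes. Drosophila carries a set of extra subunit genes that are used mainly in the testis.

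In control fed larvae the level of the somatic members per kb of exon ranged between 2.61 and 1275 RPM per kb, with a median of 153.5. The highest was ATPsynC, which encodes the proton-carrying ring of the ATP synthase, at 1275 ± 60.7 RPM per kb (SD, n = 4). It was followed by ATPsynF at 928 ± 67.4, ATPsynO, the stalk protein OSCP, at 886 ± 43.3, and UQCR-14 at 811 ± 29.4 RPM per kb. By complex the median level was 485 RPM per kb for the ATP synthase, 412 for complex III, 151 for complex I and 64.2 for complex IV. The reading of ATPsynC is less certain than most, because its exons share bases with another gene on the same strand, as do those of ND-15, UQCR-Q, ND-MLRQ and ND-MWFE.

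Within each complex a few members stood far below their partners. COX4, a regulatory subunit of complex IV, was at 2.61 ± 0.564 RPM per kb, whereas COX7A of the same complex was at 789.7 ± 49.3. ATPsynbeta, the catalytic subunit of the ATP synthase, was at 8.10 ± 1.78 RPM per kb, and ATPsynG was at 7.93 ± 0.370. In complex III UQCR-11 and UQCR-6.4 were at 3.69 and 6.27 RPM per kb, against 639.8 for the core protein UQCR-C1. In all, 12 of the 55 somatic members were under 20 RPM per kb, and each of these 12 has 2 or more annotated transcripts. All 10 somatic members with a single annotated transcript were at 150.7 RPM per kb or above, with a median of 346. The 23 with 2 transcripts had a median of 185 and the 22 with 3 or more a median of 85.0 RPM per kb. Over all genes of the table the median levels in control fed larvae were 8.69 RPM per kb with 1 transcript, 6.46 with 2 and 7.18 with 3 or more. The part of the transcript number in these levels was not tested. The sources used here do not settle whether reads were dropped in counting at genes with several transcripts, so the low readings, those of ATPsynbeta, ATPsynG and COX4 among them, may lie below the true levels. Even the lowest somatic member had at least 27 reads in every library.

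**Figure D1:**
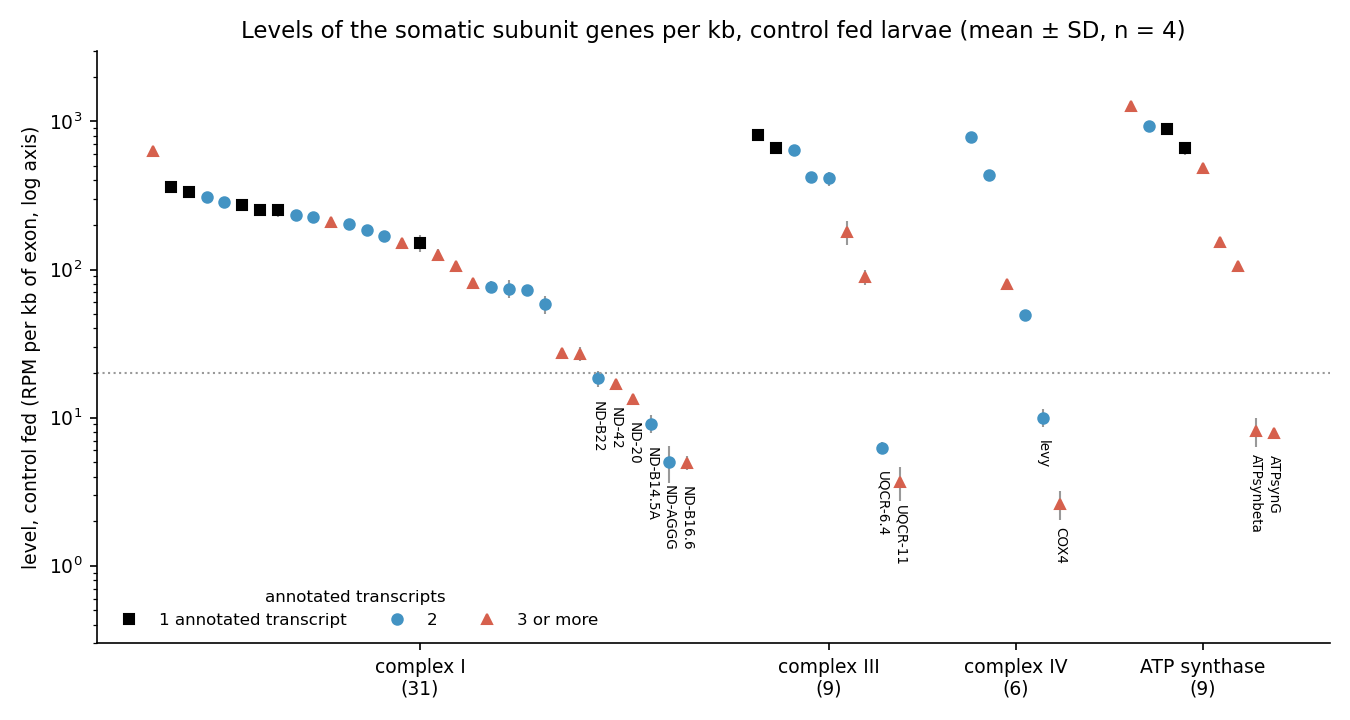
Level of each of the 55 somatic subunit genes in control fed larvae, in RPM per kb of exon on a log axis, ordered within each complex, with the mean and SD of 4 libraries. Symbols mark the number of annotated transcripts, and the 12 genes under the dotted line at 20 RPM per kb are named. No gene with a single transcript lies under that line.

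Fasting of control larvae addressed how the chain responds to the loss of food. The somatic members were lower nearly as one block, with 53 of 55 called lower and none higher, and a median difference of -0.48. At an unadjusted p under 0.05 by limma 0 were higher, and edgeR and DESeq2 also called 0 higher, in this and in the other 3 comparisons of groups. With quantile normalisation 1 somatic gene, ND-51, was called higher upon fasting of controls. Of all genes, 32.2% were called lower and 37.5% higher in this comparison, and the median of all genes was 0.10. All 9 somatic genes of complex III, all 6 of complex IV and all 9 of the ATP synthase were called lower, and 29 of 31 of complex I. Median differences were -0.47 for complex I, -0.49 for complex III, -0.52 for complex IV and -0.51 for the ATP synthase. The summed level of the 55 genes was 10203 ± 890 RPM in control fasted larvae and 14166 ± 568 RPM in control fed larvae (SD, n = 4 each), a ratio of 0.720, and the libraries of the 2 groups did not overlap. In 47 of the 55 genes the single values of the groups did not overlap either, with the fasted larvae lower, and this held for 29.6% of all genes.

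The largest falls among called genes without overlap were those of ATPsynG, ATPsynbeta and ox. ATPsynG and ATPsynbeta are among the low readings described above, which may lie below the true levels. ATPsynG, a membrane subunit of the ATP synthase, was at 3.59, 3.16, 2.42 and 1.68 RPM in control fasted larvae, against 6.00, 6.67, 6.23 and 6.13 RPM in control fed larvae, a difference of -0.99 ± 0.14 (SE; adjusted p = 1.93e-05 by limma). Every fasted library lay below every fed one. ATPsynbeta fell by 0.78 ± 0.14 (adjusted p = 0.000136 by limma) and ox, a small subunit of complex III, by 0.75 ± 0.10 (adjusted p = 8.66e-06 by limma). Among the core subunits, ND-75, the large iron-sulfur protein of complex I, had 432, 426, 494 and 398 RPM in control fasted larvae and 579, 608, 642 and 540 RPM in control fed larvae, a difference of -0.44 ± 0.08 (adjusted p = 0.000215 by limma). Cyt-c1, the haem protein of complex III, fell to 432 ± 33.3 RPM in control fasted larvae, against 644 ± 21.9 RPM in control fed larvae (SD, n = 4 each). ATPsynO averaged 508 ± 48.3 RPM in control fasted and 711 ± 34.7 RPM in control fed larvae. ATPsynC was at 1587, 1365, 1780 and 1384 RPM in control fasted larvae, against 2240, 2344, 2455 and 2489 RPM in control fed larvae.

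Both exceptions were complex I genes. ND-51, the NADH-binding flavoprotein, had 338, 355, 392 and 313 RPM in control fasted larvae and 327, 327, 334 and 308 RPM in control fed larvae, groups that overlap, with a difference of 0.10 ± 0.08 (adjusted p = 0.271 by limma). With quantile normalisation this difference was 0.20 and called (adjusted p = 0.00906 by limma). ND-42 differed by -0.21 ± 0.10 (adjusted p = 0.087 by limma). COX4 was called at -0.25 ± 0.11 (adjusted p = 0.0477 by limma) but lost the call when any 1 of 14 libraries was left out. RFeSP, the Rieske iron-sulfur protein of complex III, differed by -0.44 ± 0.16, and its call was lost without control fasted replicate 1 or 4 or control fed replicate 2 or 3. With a minimum difference of 0.5 added to the threshold, 25 members stayed called lower, since the typical fall lay near that size.

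**Figure D2:**
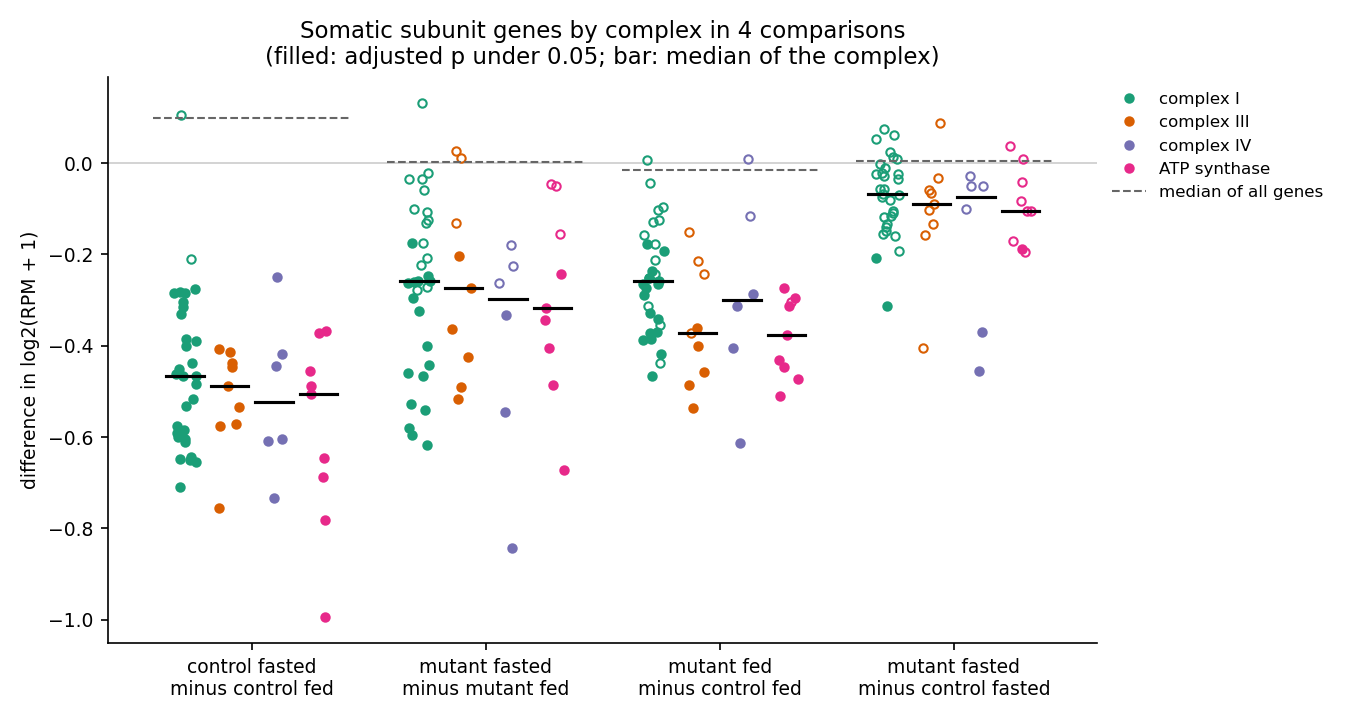
Difference in log2(RPM + 1) of each somatic subunit gene in 4 comparisons, coloured by complex, with filled points for genes called by limma, a black bar at the median of each complex and a dashed line at the median of all genes. The points lie lowest in control fasted minus control fed larvae (median -0.48) and closest to the line of all genes in mutant fasted minus control fasted larvae (median -0.07).

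ERK7 mutants were also compared with controls on food, without fasting. The somatic members were lower in the fed mutants as well, with 34 of 55 called lower, none higher and a median difference of -0.30. Of all genes, 26.0% were called lower and 25.6% higher, and the median of all genes was -0.02. The ATP synthase had 8 of 9 genes lower with a median of -0.38, complex III 5 of 9 with -0.37, complex IV 4 of 6 with -0.30 and complex I 17 of 31 with -0.26. The summed level was 11047 ± 840 RPM in mutant fed larvae and 14166 ± 568 RPM in control fed larvae, a ratio of 0.780, without overlap. Single values did not overlap in 31 of the 55 genes, with the mutants lower, against 25.9% of all genes. With quantile normalisation the count of members called lower was 19 and the median difference of the somatic genes was -0.16, while the count of members called higher stayed at 10. Only 3 of the members called lower differed by more than 0.5.

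COX5B, a subunit of complex IV, differed most among the somatic genes. It had 194, 240, 202 and 201 RPM in mutant fed larvae, against 318, 328, 335 and 295 RPM in control fed larvae, a difference of -0.61 ± 0.12 (adjusted p = 0.000485 by limma). UQCR-C1 had 794, 749, 681 and 659 RPM in mutant fed larvae and 1029, 1049, 1134 and 965 RPM in control fed larvae, a difference of -0.54 ± 0.09 (adjusted p = 0.000204 by limma). For both genes the groups were well apart. ATPsynCF6, a stalk subunit of the ATP synthase, fell by 0.51 ± 0.12. ND-49, a core subunit of complex I, had 382, 371, 358 and 371 RPM in mutant fed larvae and 501, 503, 490 and 487 RPM in control fed larvae, so the groups were apart. Some members were at similar levels in both genotypes on food. levy, the Drosophila subunit 6A of complex IV, was at 5.95 ± 0.359 RPM in mutant fed larvae and 5.94 ± 0.809 RPM in control fed larvae, and ND-15 at 30.7 ± 1.46 and 30.6 ± 3.37 RPM in the same groups.

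The mutants were also fasted, and their somatic members were lower than in fed mutants. Here 32 of 55 were called lower and none higher, with a median difference of -0.26, while 25% of all genes were called lower (2616 of 10459), 23.7% were called higher and the median of all genes was 0.00. By complex, 17 of 31 genes of complex I were called lower with a median of -0.26, 6 of 9 of complex III with -0.27, 3 of 6 of complex IV with -0.30 and 6 of 9 of the ATP synthase with -0.32. The summed level was 9595 ± 541 RPM in mutant fasted larvae and 11047 ± 840 RPM in mutant fed larvae, a ratio of 0.869, without overlap. Single values did not overlap in 28 of the 55 genes, with the fasted larvae lower, against 23.1% of all genes. levy had 2.41, 2.79, 3.36 and 3.00 RPM in mutant fasted larvae and 6.27, 6.11, 6.00 and 5.44 RPM in mutant fed larvae, a difference of -0.84 ± 0.11 (adjusted p = 1.25e-05 by limma). ATPsynbeta fell by 0.67 ± 0.14 and ND-15 by 0.62 ± 0.07. The readings of levy and ATPsynbeta are among the low ones that may lie below the true levels. UQCR-C1 was at 693, 739, 824 and 681 RPM in mutant fasted larvae and 794, 749, 681 and 659 RPM in mutant fed larvae, so the groups overlapped, and the difference was 0.03 ± 0.09 (adjusted p = 0.849 by limma). Only 9 of the members called lower differed by more than 0.5, and at a threshold of 0.01 the count was 20.

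Fasted mutants and fasted controls differed least of the 4 pairs of groups in the somatic median. Of the 55 somatic members 5 were called lower and none higher, and the median difference was -0.07. These shares lay below those of all genes, of which 20.9% were called lower and 23.8% higher with a median of 0.00. The summed level was 9595 ± 541 RPM in mutant fasted larvae and 10203 ± 890 RPM in control fasted larvae, a ratio of 0.940, and the libraries overlapped. The genes called were COX5B (-0.46 ± 0.12), COX4 (-0.37 ± 0.11), ND-51 (-0.31 ± 0.08), ND-49 (-0.21 ± 0.06) and ATPsyndelta (-0.19 ± 0.07), the last a part of the rotating stalk of the ATP synthase. All 5 were also called lower in the fed mutants, and none of their groups overlapped here, while 16.9% of all genes were lower without overlap. COX5B had 195, 208, 134 and 166 RPM in mutant fasted larvae and 239, 230, 263 and 223 RPM in control fasted larvae. ND-51 had 258, 303, 307 and 256 RPM in mutant fasted larvae and 338, 355, 392 and 313 RPM in control fasted larvae, while on food it had 284, 246, 246 and 247 RPM in mutants and 327, 327, 334 and 308 RPM in controls. ND-51 was thus called by genotype on both diets. The count fell to 0 when control fasted replicates 2 and 3 were both left out and was 8 without replicates 1 and 4, a choice made after seeing the data.

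**Figure D3:**
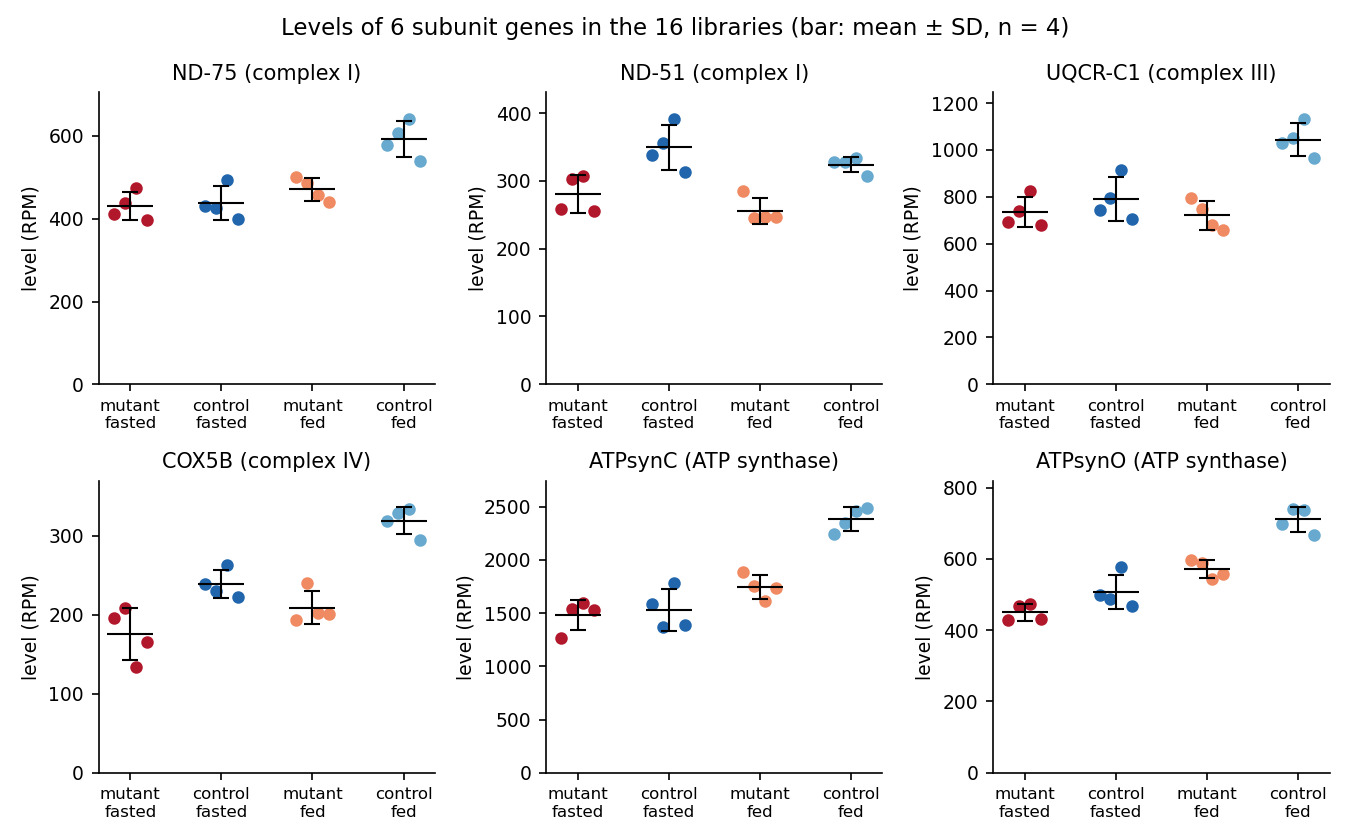
Level in RPM of ND-75, ND-51, UQCR-C1, COX5B, ATPsynC and ATPsynO in each of the 16 libraries, with the mean and SD of each group. Control fed larvae are highest for 5 of the 6 genes, and ND-51 is lower in mutants than in controls on both diets.

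Whether fasting acted differently in the mutants was tested as an interaction, the mutant difference minus the control difference. In 51 of 55 somatic genes the difference between fasted and fed larvae was higher in mutants than in controls. This held for 4862 of all 10459 genes. For all but ND-51 of the 51 somatic genes it meant a smaller fall or none. The median interaction was 0.21, against -0.03 for all genes, which include those that rise upon fasting. In single genes 5 of 55 were called, all with a smaller fall or none in the mutants. No somatic gene was called the other way by limma, edgeR or DESeq2 or at an unadjusted p under 0.05 by limma. At that unadjusted p 16 had a smaller fall or none in the mutants. The 5 called at the adjusted threshold were UQCR-C1 (0.43 ± 0.13, adjusted p = 0.0206 by limma), ATPsynC (0.41 ± 0.13), ND-ACP (0.39 ± 0.10, adjusted p = 0.00676 by limma), ND-30 (0.34 ± 0.12) and Cyt-c1 (0.30 ± 0.10). In the 16 fits that left out 1 library, the call of ATPsynC was lost in 9 and that of Cyt-c1 in 6. The calls of UQCR-C1 and ND-ACP were lost in 0 of these fits. Of all genes 18.2% were called higher and 13.7% lower in the interaction, so the called share of these genes was below the background. Among genes lower upon fasting in controls, the share called higher in the interaction was 9.43% for the somatic members (5 of 53) and 48.8% for all genes (1644 of 3370). The median interaction was 0.21 in these 53 members and 0.33 in these 3370 genes. These shares and medians use the same control libraries for choosing the genes and for the interaction. The somatic falls were also the smaller ones, with a median of -0.49 in the 53 members and -0.65 in the 3370 genes. Upon fasting of mutants, 60.4% of the 53 members and 63.4% of the 3370 genes were called lower too.

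ND-ACP, the acyl carrier protein of complex I, shows the pattern. It was at 71.2, 76.0, 79.9 and 80.6 RPM in mutant fasted larvae and 101, 94.7, 88.1 and 85.2 RPM in mutant fed larvae, against 80.2, 82.9, 84.7 and 76.2 RPM in control fasted larvae and 127, 118, 135 and 130 RPM in control fed larvae. The fed controls stood above the other 3 groups. The responses of the 55 genes in the 2 genotypes, which have no library in common, correlated across genes with r = 0.751 (Pearson) and rho = 0.778 (Spearman). Genes are not independent replicates, so this is a description. The 4 genes with a larger fall in mutants than in controls were ND-15, ND-MWFE, COX4 and levy, and none of them was called in the interaction. The count of members called higher in the interaction, with a smaller fall or none in mutants, ranged between 2 and 10 as single libraries were left out. It was 2 without control fed replicate 3, mutant fed replicate 3 or 4, control fasted replicate 4 or mutant fasted replicate 3, it was 3 without control fasted replicate 2 or mutant fasted replicate 2, and it was 10 without mutant fed replicate 1 or control fasted replicate 3.

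**Figure D4:**
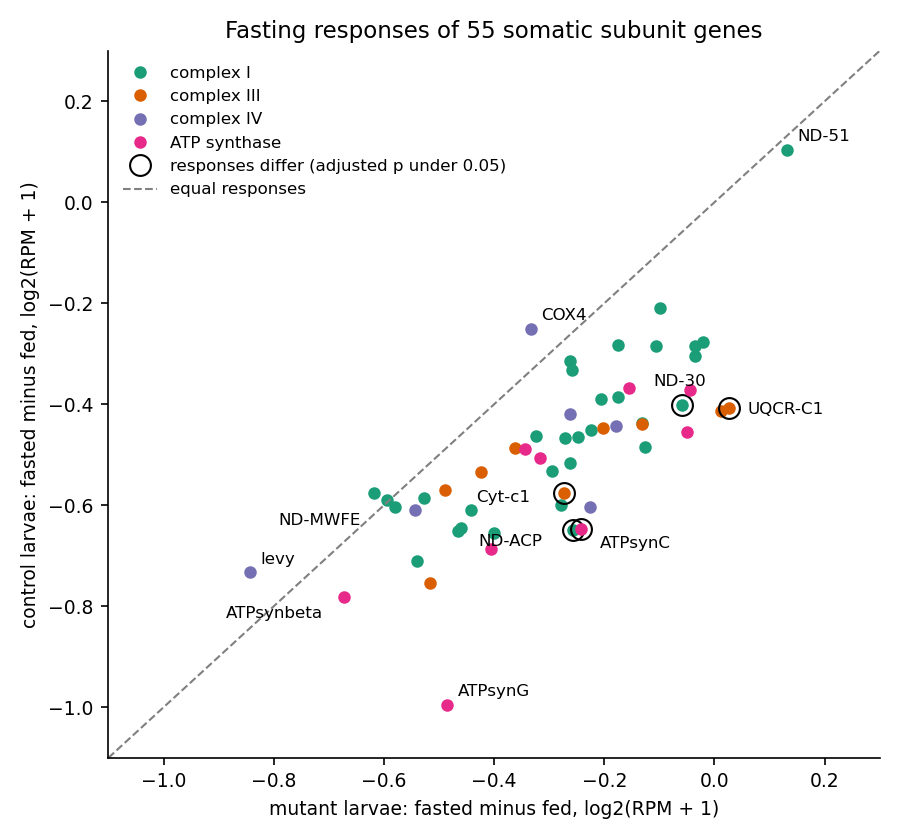
Fasting difference of each of the 55 somatic subunit genes in mutant larvae (x axis) and control larvae (y axis), both in log2(RPM + 1), coloured by complex, with the line of equal responses. Below the line lie 51 genes, whose difference was lower in controls, and the 5 circled genes were called in the interaction.

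The 10 testis-biased paralogues behaved apart from the somatic members. In the fed mutants all 10 were called higher, with a median difference of 1.43, where 25.6% of all genes were called higher. In the fasted mutants 8 of 10 were called higher than in fasted controls with a median of 0.82 (23.8% of all genes). Upon fasting of controls 4 of 10 were called higher with a median of 0.59 (37.5% of all genes), and upon fasting of mutants none was called in either direction with a median of -0.04, where limma at an unadjusted p under 0.05, edgeR and DESeq2 gave 0 as well. In the interaction 1 was called lower, ND-49L at -1.14 ± 0.38, where 13.7% of all genes were called lower. All of these genes were at low levels, between 0.326 and 3.97 RPM per kb in control fed larvae, and 2 of them had no read in 1 of the libraries.

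ND-49L, the paralogue of the complex I subunit ND-49, had 5.52, 6.52, 9.61 and 8.96 RPM in mutant fed larvae, against 1.08, 0.931, 0.963 and 0.422 RPM in control fed larvae, a difference of 2.21 ± 0.27 (adjusted p = 1.2e-05 by limma). Cyt-c-d had 4.89, 6.41, 7.24 and 7.09 RPM in mutant fed larvae, against 1.84, 2.02, 1.41 and 0.528 RPM in control fed larvae, a difference of 1.63 ± 0.27. ATPsynbetaL, the most abundant of the 10, had 21.2, 22.2, 22.5 and 20.8 RPM in mutant fed larvae, against 10.3, 11.1, 8.15 and 2.80 RPM in control fed larvae. In these 3 genes the fed groups did not overlap. The other differences in fed larvae were 1.65 for ATPsynGL, 1.46 for ND-51L1, 1.41 for ATPsynCF6L, 1.36 for COX7AL, 1.29 for COX5BL, 1.06 for ND-24L and 0.98 for UQCR-14L. Of the 9 paralogues whose somatic partner was measured, 8 were called higher in the fed mutants while the partner was called lower. All 10 paralogues were called higher there, and 34 of the 55 somatic genes were called lower. Of all genes 25.6% were called higher and 26.0% lower. COX5BL differed by 1.29 and COX5B by -0.61, ATPsynCF6L by 1.41 and ATPsynCF6 by -0.51, and ND-49L by 2.21 and ND-49 by -0.42. In the ninth pair ATPsynbeta was not called (-0.30). COX5B (2L:6557800-6559308, release 6) and COX5BL (2L:6559431-6560133) lie on the same strand, 122 bases apart.

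The fasted controls were split. The summed level of the 10 paralogues was 67.7, 65.8, 48.9 and 69.8 RPM in mutant fasted larvae and 48.4, 16.0, 14.1 and 43.0 RPM in control fasted larvae, and it was 49.0, 53.9, 63.1 and 59.7 RPM in mutant fed larvae and 18.9, 18.7, 14.0 and 5.18 RPM in control fed larvae. Control fasted replicates 1 and 4 stood near the mutants and replicates 2 and 3 near the fed controls. A list of 39 other testis genes moved in the same way, with sums of 496, 533, 361 and 548 RPM in mutant fasted larvae, 360, 163, 121 and 331 RPM in control fasted larvae, 390, 458, 598 and 551 RPM in mutant fed larvae, and 154, 144, 119 and 76.8 RPM in control fed larvae. The paralogue sum was 9.84 to 13.7% of the testis list sum in 15 libraries and 6.74% in control fed replicate 4. Of the 39 testis genes 37 were called higher in fed mutants (25.6% of all genes), 33 in fasted mutants (23.8%) and 29 upon fasting of controls (37.5%). Erk7 itself was at 5.58 to 10.2 RPM in mutant fed larvae and 0.634 to 3.05 RPM in control fed larvae. It was at 7.60, 8.03, 5.14 and 7.88 RPM in mutant fasted larvae and 7.67, 3.53, 1.83 and 9.73 RPM in control fasted larvae, groups that overlap, with replicates 2 and 3 again the low ones among fasted controls. In whole larvae more testis cells and more RNA per cell cannot be told apart.

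The split decided several counts. Without control fasted replicates 2 and 3 all 10 paralogues were called higher upon fasting of controls and none in fasted mutants against fasted controls, and 8 members were called lower in the interaction. Without replicates 1 and 4 the counts were 1, 10 and 0. Single libraries mattered too: upon fasting of controls the count was 2 without control fed replicate 4, control fasted replicate 1 or control fasted replicate 4, and 8 without control fasted replicate 2 or 3. In fasted mutants against fasted controls it was 4 without control fasted replicate 2 or 3 and 5 without mutant fasted replicate 4. The call of ND-49L in the interaction was lost without control fed replicate 4, mutant fed replicate 3 or 4, control fasted replicate 1 or 4, or mutant fasted replicate 3. The count of 10 in fed mutants stayed at 10 in each of the 16 fits that left out 1 library.

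**Figure D5:**
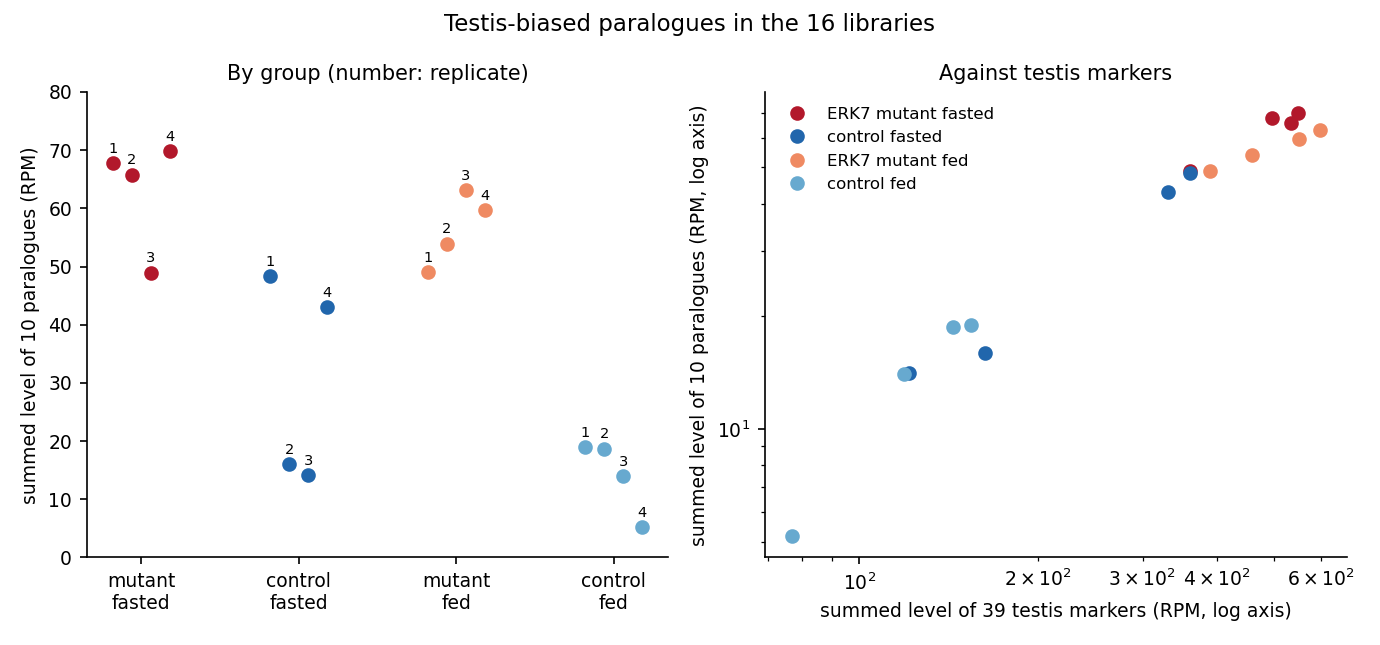
Summed level in RPM of the 10 testis-biased paralogues in each library by group (left, with replicate numbers) and against the summed level of 39 other testis genes (right, both axes log). Control fasted replicates 1 and 4 (48.4 and 43.0 RPM) lie near the mutants, and replicates 2 and 3 (16.0 and 14.1 RPM) lie near the fed controls.

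Markers of other tissues were read beside the somatic members. The summed level of 9 fat body genes was 27935 to 34538 RPM in mutant fasted, 13392 to 15075 RPM in control fasted, 112310 to 133250 RPM in mutant fed and 39024 to 58404 RPM in control fed larvae, so no library of one group reached the range of another. The sum rests on a few abundant genes. Gene by gene, 3 of the 9 were called higher and 1 lower in fed mutants, 7 higher and 0 lower in fasted mutants, 2 higher and 5 lower upon fasting of mutants, and 1 higher and 7 lower upon fasting of controls. Lsp1gamma, a larval serum protein, averaged 11880 RPM in mutant fasted, 627 in control fasted, 51300 in mutant fed and 14920 RPM in control fed larvae. The sum of 16 muscle genes overlapped between all groups (55282 to 66002, 57303 to 67881, 49247 to 69564 and 55663 to 59831 RPM in the same order), and so did that of 20 midgut genes (24736 to 29090, 24617 to 36490, 26008 to 29816 and 24658 to 31714 RPM). Of the muscle genes 5 were called higher and 3 lower upon fasting of controls, and 0 and 3 upon fasting of mutants. In fed mutants the counts were 4 and 1, and in fasted mutants 1 and 1. Of the midgut genes 9 were called higher and 5 lower upon fasting of controls, and 4 and 5 upon fasting of mutants. In fed mutants these counts were 5 and 3, and in fasted mutants 1 and 6. Of all genes, 37.5% were called higher and 32.2% lower upon fasting of controls, and 23.7% and 25% upon fasting of mutants. In fed mutants these shares of all genes were 25.6% and 26.0%, and in fasted mutants 23.8% and 20.9%. The part of these tissues in the differences of the subunit genes was not tested.

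Assembly factors help build the complexes without being part of them. Of 11 measured genes listed as such, 9 were called lower and 2 higher upon fasting of controls (32.2% and 37.5% of all genes). In fed mutants 9 were lower and 2 higher (26.0% and 25.6%). Scox, a copper chaperone of complex IV, differed by -0.83 upon fasting of controls and by -0.57 in fed mutants. Surf1, another complex IV factor, differed by -0.72 and -0.40 in these comparisons. The 2 higher ones were ttm3 and Tim17b1, both members of small families of import proteins, so the list does not hold assembly factors alone. They averaged 1.91 and 4.91 RPM in mutant fed larvae, against 0.122 and 1.20 RPM in control fed larvae. Upon fasting of mutants 6 of the 11 were lower (25% of all genes), and in the interaction 6 were called higher and 1 lower (18.2% and 13.7%). Between fasted mutants and fasted controls 3 were lower and 2 higher (20.9% and 23.8%).

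Of 17 further genes of the chain, coenzyme Q synthesis and proton coupling that the symbol rule does not reach, 12 were lower and 2 higher upon fasting of controls (32.2% and 37.5% of all genes), and 10 were lower and 2 higher in fed mutants (26.0% and 25.6%). blw, the alpha subunit of the ATP synthase, averaged 2245 RPM in mutant fasted, 2431 in control fasted, 2491 in mutant fed and 3421 RPM in control fed larvae, and was called lower upon fasting of controls (-0.50) and in fed mutants (-0.46). sesB, the main ADP/ATP carrier, differed by -0.55 upon fasting of controls and by -0.67 in fed mutants, while Ant2, the second carrier gene, was higher in mutants on both diets by 0.79 (fed) and 0.88 (fasted). In the interaction 4 of the 17 were called higher, sesB at 0.44 and blw at 0.35 among them, and 1 lower, where 18.2% of all genes were called higher and 13.7% lower.

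Some subunits encoded by the mitochondrial genome were higher in mutants. Of 12 measured, 6 were called higher and 1 lower in fed mutants, with a median of 0.29, and again 6 higher and 1 lower in fasted mutants, with a median of 0.25. The shares of all genes called higher were 25.6% and 23.8%, and those called lower 26.0% and 20.9%. mt:ND1 averaged 2973 RPM in mutant fasted and 1716 RPM in control fasted larvae, and 3165 RPM in mutant fed and 1996 RPM in control fed larvae, differences of 0.79 and 0.67. mt:CoI, mt:ND4, mt:ND5 and mt:ATPase6 were higher in mutants on both diets by 0.23 to 0.48. mt:CoII was the one called lower, by -0.18 on food and -0.19 upon fasting. Upon fasting, 3 of the 12 were called lower in controls (32.2% of all genes) with a median of -0.12, and 2 in mutants (25% of all genes) with a median of -0.13. The differences lay below 0 in 10 of the 12 in controls and in all 12 in mutants. Of all 10459 genes, 4638 lay below 0 in controls and 5209 in mutants.

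Regulators of mitochondrial gene expression were lower in fed mutants in 10 of 14 (26.0% of all genes) and higher in none (25.6%), with a median of -0.45. srl, the Drosophila PGC-1 coactivator, averaged 22.4 RPM in mutant fasted, 19.6 in control fasted, 34.0 in mutant fed and 86.5 RPM in control fed larvae, with differences of -2.08 upon fasting of controls, -1.32 in fed mutants and 1.48 in the interaction. bsf, which binds mitochondrial transcripts, had differences of -1.43, -1.35 and 1.16 in the same comparisons, and mtSSB, the mitochondrial single-strand DNA binding protein, of -2.10, -1.12 and 1.16. mtRNApol, the mitochondrial RNA polymerase, averaged 34.8 RPM in mutant fasted and 49.4 RPM in control fasted larvae, and 21.8 RPM in mutant fed and 51.9 RPM in control fed larvae, lower in mutants on both diets. Upon fasting of controls 7 of the 14 were lower and 1 higher (32.2% and 37.5% of all genes), upon fasting of mutants 3 were lower and 3 higher (25% and 23.7%), and in the interaction 6 were called higher (18.2%). Between fasted mutants and fasted controls 5 were lower and 0 higher (20.9% and 23.8%).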

How the data were processed

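RNA of 16 libraries was sequenced, trimmed with Trimmomatic, aligned with TopHat 2.1.0 to the fly genome (FlyBase release 6) and counted by strand on exons with HTSeq by the authors, who removed genes with very low counts. The deposited signal values are read counts that the authors scaled to effective library sizes with TMM factors (RPM). 100% of them were whole multiples of 1 read within a tolerance of 0.001 reads, and the reads were recovered for the count tests. Columns with the authors' own fold changes, test statistics and p-values were not used.

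Levels were tested with limma 3.58.1 (R 4.3.3) after adding a pseudocount of 1 and taking log2, in a model of the 4 group means over 16 libraries with 12 residual degrees of freedom, adjusted over 10459 genes at 0.05. Fasted and fed larvae were compared within each genotype, mutants and controls within each diet, and the difference between the 2 fasting responses was the interaction. The code was tested on simulated data. Alternatives were another pseudocount, other scalings, a filter at the 25th percentile, a variance trend, a fit of 8 libraries, a replicate block, edgeR 4.0.16 and DESeq2 1.42.0 on the recovered reads, stricter thresholds and each library left out.

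The members and all lists were chosen with earlier results of these data known. Genes named were fixed core subunits, all testis-biased paralogues, and the 3 somatic genes with the largest rise and fall per comparison among those called and, between groups, without overlap. ND-42, the members named for their level per kb or in a full account of a count, and the genes of the other lists were named outside that rule, after their values were seen. No sequences were used here. Exons, neighbours and transcript numbers came from the Ensembl annotation of the same assembly, in which all 65 members were found. Exons of 5 members share bases with a gene on the same strand and those of 27 with one on the other strand. Pairs of libraries of a group differed by more than the sampling noise, with a chi-square of 12.1 to 51.0 per degree of freedom.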

Additional observations from a re-analysis of the deposited data

Results flagged for a closer look

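In groups of 4 libraries, 1 value stood far from the other 3 in 4 of the 132 groups examined, and chance gives about 1 in 20. The summed level of the somatic complex IV genes was 1032.9 RPM in control fed replicate 3, against 944, 952 and 958 RPM in the other control fed libraries. ATPsynCF6L was at 0 RPM in control fed replicate 4, against 0.379, 0.414 and 0.449 RPM. ND-51 was at 284.5 RPM in mutant fed replicate 1, against 246, 246 and 247 RPM. ox was at 116.8 RPM in mutant fasted replicate 1, against 143, 146 and 147 RPM. The fasting response differed between the genotypes by the interaction test in 6 members, which were UQCR-C1, ATPsynC, ND-ACP, ND-30, Cyt-c1 and ND-49L.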

How the results depend on the processing

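No somatic median turned sign under the 11 other settings, the 16 fits without 1 library or the 2 added after seeing the data. The median of all genes lies near 0 and did turn sign: with the filter it was -0.02 upon fasting of controls (0.10) and 0.03 in the interaction (-0.03), and with centred libraries 0.03 in fed mutants (-0.02). Counts are of members among 65. With quantile normalisation, 2 members were higher upon fasting of controls (4 as reported, all paralogues), the somatic gene ND-51 and 1 paralogue, ND-49L, and the somatic median was -0.41 (-0.48), in fed mutants 19 were lower (34) with a median of -0.16 (-0.30), and the interaction had 3 higher (5) and 0 lower (1). The filter at the 25th percentile kept 49 somatic members and 1 of the 10 paralogues, and with these 0 were higher upon fasting of controls, 1 in fed mutants (10), 1 in fasted mutants (8) and 0 lower in the interaction. With only the 8 libraries compared, 2 were higher upon fasting of controls and 1 upon fasting of mutants (0), and 4 were higher and 3 lower in fasted mutants (8 and 5). DESeq2 gave 8 higher upon fasting of controls, and 8 higher and 2 lower in the interaction. edgeR and the pseudocount of 0.1 gave 2 lower in the interaction each. At 0.01 the counts were 2 higher upon fasting of controls, 20 lower upon fasting of mutants (32), 21 lower in fed mutants, 3 higher and 2 lower in fasted mutants, and 1 higher and 0 lower in the interaction. With a difference over 0.5, 25 were lower upon fasting of controls (53), 9 upon fasting of mutants, 3 in fed mutants, 0 in fasted mutants, and 0 were higher in the interaction. Without control fasted libraries 1 and 4 the counts were 1 higher upon fasting of controls, 8 lower in fasted mutants, and 1 higher and 0 lower in the interaction. Without libraries 2 and 3 they were 10, 0, 9 and 8, with 0 higher in fasted mutants. Leaving out 1 library gave 2 to 8 higher and 48 to 53 lower upon fasting of controls, 23 to 36 lower upon fasting of mutants, 26 to 37 lower in fed mutants, 4 to 10 higher and 4 to 7 lower in fasted mutants, and 2 to 10 higher and 0 to 2 lower in the interaction. With the replicate block 52 members were lower upon fasting of controls, 31 upon fasting of mutants and 35 in fed mutants, and 6 were higher in the interaction. Same-numbered libraries correlated between -0.32 and 0.29 over 24 pairs, 6 of them above 0.1, so the numbers were not used as pairs. Except where the construction shows it, the cause of a change was not tested. The paralogues rest on few reads, which limits their precision.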

Other observations

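Readings of subunits that enter one complex differed by over 100-fold per kb of exon, and whether reads of the low ones were lost in counting was not tested. In the ATP synthase ATPsynbeta averaged 8.10 RPM per kb and ATPsynC 1275 RPM per kb in control fed larvae, and in complex IV COX4 averaged 2.61 and COX7A 789.7 RPM per kb. The testis paralogue ATPsynbetaL was at 13.9 ± 1.79 RPM per kb in mutant fasted larvae, above ATPsynbeta at 3.89 ± 0.750 RPM per kb in the same libraries, and the loss of reads at ATPsynbeta, which has 3 annotated transcripts, was not tested. Of the 12 somatic genes under 20 RPM per kb, 6 share exon bases with a gene on the other strand, 6 with no gene and 0 with a gene on the same strand. Among all 55 somatic genes, 23 share exon bases with a gene on the other strand only, 27 with no gene and 5 with a gene on the same strand.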
